A study of Mus musculus with 34 samples.

Results

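Coronal fractions 10 to 15 from the brain of a single mouse were compared across the step between fraction 12 and fraction 13: fractions 10-12 on one side and fractions 13-15 on the other. They were 6 of the 34 fractions of the series, with 1 Agilent array a fraction and 1 dye, and all 6 came from mouse 1, an untreated male of strain C57BL/6J killed at 3 days of age. Transcriptome tomography cuts a frozen brain along 1 axis and pools neighbouring slices, here 500 μm of tissue for each fraction, so that every value is the level of a transcript at 1 position along that axis. Whether fraction 1 is the front or the back is not given in the labels, nor are the brain regions in a fraction. Both sides therefore share strain, sex, age, animal and treatment and differ in position, and the spread within a side is the spread over 3 neighbouring positions of 1 brain. The members were all probes of the deposited log2 table that the scanner software called well above background in at least 2 of the 6 fractions. They numbered 30786 of 43199, and 14941 genes had at least 1 of them.

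The forebrain of a newborn mouse joins regions whose neurons read out different transcription factors. Projection neurons of the striatum use dopamine, adenosine and opioid receptors and carry the peptides of the direct and indirect pathways, and cholinergic neurons of the basal forebrain are set up by the homeodomain factors Nkx2-1, Lhx8 and Isl1. The olfactory bulb lies in front of both, with mitral and tufted cells as its output neurons and GABAergic and dopaminergic interneurons that arrive throughout life. All values here are log2 normalized signals, the log2 processed signal of a probe less the 75th percentile of its array.

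The 6 arrays called 49.9 to 56.2% of spots well above background, with the lowest share in fraction 14, and none had a saturated spot. The R2 of the spike-in dose curve was 0.990 to 0.994. Fractions 10, 11, 13, 14 and 15 lay on slide 3 and fraction 12 on slide 5. On slide 3, fractions 10 and 11 were in row 1 and fractions 13, 14 and 15 in row 2, so that row and side cannot be told apart there. Pearson's r between the arrays of neighbouring fractions was 0.9925 for 10 and 11, 0.9882 for 11 and 12, 0.9877 for 12 and 13, 0.9862 for 13 and 14 and 0.9829 for 14 and 15. The value across the step lay between those of the pairs before it and after it.

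At the test's threshold more probes were lower after the step than higher, which did not hold without fraction 13, without fraction 11 or without a flag filter. Bulk fractions cannot tell fewer cells of a type from less RNA per cell, and this holds for each result here. In a limma fit of the 3 fractions on one side against the 3 on the other, 72 probes (0.234% of those tested) were lower in fractions 13-15 and 10 probes (0.0325%) were higher at a Benjamini-Hochberg adjusted p under 0.05. The 72 probes that fell named 48 genes and the 10 that rose named 8 genes, and 23 of the 82 probes matched no gene symbol. With 1 probe for each gene (the one with the highest mean), 43 genes (0.288%) fell by 1.22 to 4.72 on the log2 scale and 8 genes (0.0535%) rose by 1.23 to 9.15. Of the 43 genes that fell, 14 were well above background in none of fractions 13-15, and of the 8 that rose, 5 in none of fractions 10-12, so that these had passed the filter through their brighter side alone. None of the 82 probes had sides that overlapped. Sides without overlap were common in themselves. They were found in 2761 probes (8.97%) that were lower in 13-15 and in 2403 (7.81%) that were higher, and a gap of at least 1 log2 unit between the nearest fractions of the sides was found in 180 (0.585%) and 51 (0.166%). Without a minimum gap the balance depended on the setting. Over genes the counts were 1512 (10.1%) lower and 1499 (10.0%) higher, and over probes the balance turned to 2046 lower and 2586 higher with the array median, 2626 and 2900 with quantile normalization, 2108 and 2313 with normexp and 2097 and 2145 among probes well above background in all 6 fractions. Gaps of at least 1 kept the balance under these 4 settings but turned to 392 lower and 525 higher without fraction 13. These p-values measure spread between positions and not between mice, and the smallest p that an exact permutation test can give with 3 fractions a side is 0.10. The number of calls rested on single fractions: it was 1 lower and 0 higher without fraction 10, 0 and 0 without fraction 11, 196 and 11 without fraction 12, 560 and 784 without fraction 13, 7 and 5 without fraction 14, and 11 and 4 without fraction 15. The direction of the 88 named or called probes never turned under any of the 14 or 15 alternatives run for each. For the 82 called probes, leaving out a fraction could not turn it, since their sides did not overlap.

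**Figure D1:**
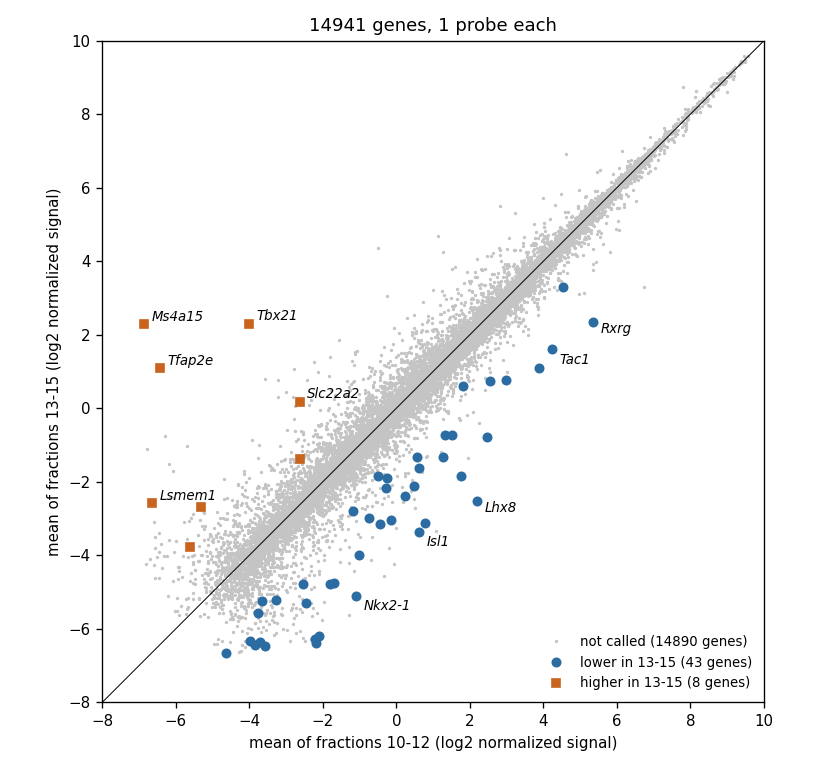
Mean log2 normalized signal in fractions 10-12 (x axis) and in fractions 13-15 (y axis) for 14941 genes, 1 probe each, with the line of equal values. Blue circles are the 43 genes that fell and orange squares the 8 that rose at an adjusted p under 0.05 (limma), and the largest distances from the line are those of Ms4a15, Tfap2e and Tbx21 above it and Lhx8 below it.

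The upstream sequences of Rarb, Six3 and Tac1 are shown because each holds a named motif beside a gene that fell across the step. They are the 250 bases before the annotated start, from RefSeq on GRCm38.p6, read 5′ to 3′ on the strand of the gene, and capitals mark the motif. Rarb, on the minus strand at chr14:16575477-16575726, holds the direct repeat of a hexamer that is known as the retinoic acid response element of this gene and was chosen for that reason. It was found in 2 of 32851 upstream sequences (0.00609%).
Rarb: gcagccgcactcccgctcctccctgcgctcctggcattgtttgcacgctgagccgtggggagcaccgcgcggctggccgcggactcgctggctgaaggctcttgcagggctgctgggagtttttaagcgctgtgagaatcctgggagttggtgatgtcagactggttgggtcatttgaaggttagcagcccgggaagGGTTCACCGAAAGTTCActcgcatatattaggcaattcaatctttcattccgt
Six3, on the plus strand at chr17:85620584-85620833, holds the X-box, the motif of RFX factors, found in 0.374% of the upstream sequences.
Six3: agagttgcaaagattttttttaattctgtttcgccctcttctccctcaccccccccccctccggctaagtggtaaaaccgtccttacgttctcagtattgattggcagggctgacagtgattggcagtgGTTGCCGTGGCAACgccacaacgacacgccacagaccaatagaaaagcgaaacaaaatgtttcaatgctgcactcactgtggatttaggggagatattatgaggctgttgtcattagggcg
Tac1, on the plus strand at chr6:7554811-7555060, holds TAATTA, the core bound by many homeodomain factors, found in 4.84% of the upstream sequences.
Tac1: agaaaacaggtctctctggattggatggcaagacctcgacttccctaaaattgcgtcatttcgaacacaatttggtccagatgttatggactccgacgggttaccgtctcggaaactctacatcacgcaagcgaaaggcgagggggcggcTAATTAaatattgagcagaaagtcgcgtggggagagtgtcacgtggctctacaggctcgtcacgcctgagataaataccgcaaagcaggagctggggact

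Of the 56 genes called, 48 had an upstream sequence in the table (41 that fell and 7 that rose). TAATTA was held by 3 of the 41 genes that fell, Brs3, Pde7b and Tac1, and the direct repeat and the X-box by Rarb and Six3 alone among them. The AP-2 site GCCNNNGGC was held by 6 of the 41 (Gm10421, P2ry1, Rasd2, Six3os1, Slc18a3 and Strip2), against 13.7% of all upstream sequences. No gene that rose held any of the 5 motifs, the T-box site AGGTGTGA (1.12% of all) included. Both strands were searched. A match describes the letters in this window and is not a measured site.

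The largest fall was that of Lhx8, a LIM homeodomain factor needed for cholinergic neurons of the basal forebrain. Its log2 normalized signal was 2.43 in fraction 10, 2.82 in fraction 11 and 1.31 in fraction 12, and then -2.31, -3.11 and -2.18 in fractions 13, 14 and 15. The sides were separated by 3.49, and the lowest value before the step lay in fraction 12, next to it. The difference of means was -4.72 ± 0.43 (SE, 3 fractions a side), a 26.3-fold difference, with an adjusted p of 0.0186 in limma. Along the whole coronal series Lhx8 was highest in fraction 11 and lowest in fraction 2, and in fractions 1-9 it climbed from at most -5.35 in fractions 1-6 to 1.02 in fraction 9. Lhx8 passed the test under 10 of 15 alternatives. The unnamed probe A_55_P2328082 ran close beside it, at 2.17, 2.62 and 1.11 against -2.40, -3.43 and -2.23 (difference -4.66 ± 0.47, adjusted p 0.0236).

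Other regulators of the same neurons fell with it. Isl1, a LIM homeodomain factor of cholinergic and striatal neurons, was at 0.36, 0.95 and 0.56 in fractions 10, 11 and 12 and at -2.80, -3.98 and -3.29 in fractions 13, 14 and 15. All 3 fractions of the first side lay at least 3.17 above all 3 of the other (difference -3.98 ± 0.32, adjusted p 0.0182). Nkx2-1, the homeodomain factor of the medial ganglionic eminence and of the hypothalamus, was at -0.62, -0.63 and -2.01 and then at -4.51, -5.77 and -5.0. It was well above background in none of fractions 13-15, so its fall is a bound, at least 9.80-fold (adjusted p 0.0404). Such a bound sets the mean of the brighter side against, in each array of the dim side, the higher of the probe's own value and the lowest value called well above background. Nkx2-1 was already high in fractions 6-9, from -2.10 to -1.10, whereas Lhx8 was at -6.98 in fraction 6.

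Genes of the cholinergic terminal moved unequally. Slc5a7, the high-affinity choline transporter, was at -1.38, -1.77 and -2.24 and then at -4.42, -5.39 and -4.52 (difference -2.98 ± 0.33, adjusted p 0.0322), and its other probe differed by -1.19 and did not pass. The Slc5a7 probe that passed was well above background in only 1 of fractions 13-15. Slc18a3, the vesicular acetylcholine transporter, was at 0.59, 0.90 and -0.05 and then at -1.87, -2.54 and -1.97 (difference -2.6 ± 0.30, adjusted p 0.0363). The sides of both genes were apart by 1.81 or more. Chat, the enzyme that makes acetylcholine, did not follow them: it was at -3.09, -3.06 and -3.43 against -5.68, -5.19 and -2.74, with fraction 15 the highest of the 6, and it did not pass the test (adjusted p 0.542). Of the 12 basal forebrain genes kept, 5 fell and 0 rose, 9 had lower sides without overlap, and the median difference was -2.65. For the 6 of them that were well above background in all 6 fractions the median was -0.84, and for all 12 with normexp it was -0.78. The interneuron factor Lhx6 stayed at 3.47, 3.69 and 3.18 against 3.25, 3.03 and 3.57 (adjusted p 0.853). Over all 14941 genes the median difference was -0.0023, and 10.1% had lower sides without overlap.

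**Figure D2:**
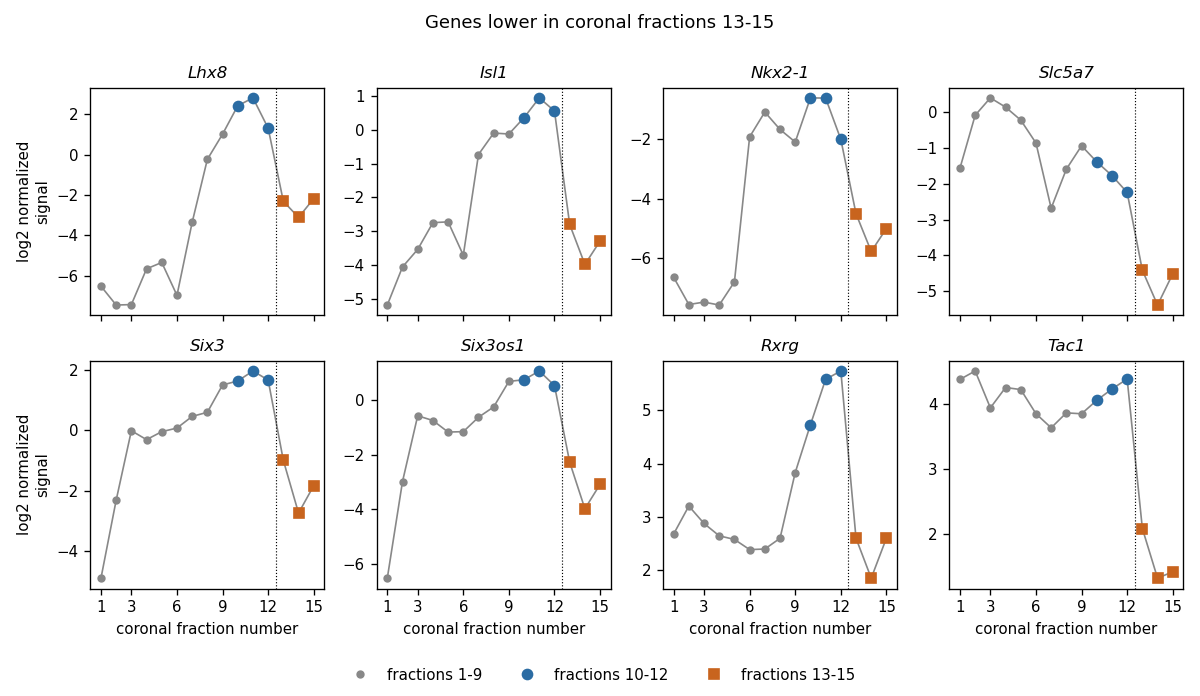
Log2 normalized signal (y axis) of 8 genes that fell, over the 15 coronal fractions (x axis), with fractions 10-12 in blue, fractions 13-15 in orange and the step as a dotted line; each point is 1 array and the y axes differ. In each gene the 3 orange squares lie below the 3 blue circles, while the other fractions differ between genes: Slc5a7 and Tac1 were highest in fractions 1-9 and the others in fractions 10-12.

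Striatal projection neuron genes made up the largest list with calls. Of 31 kept, 9 fell and 0 rose by the probe with the highest mean, and the median difference was -1.6. Lower sides without overlap were found in 27, against 10.1% of all genes, and higher ones in none. Rxrg, the retinoid X receptor of the striatum, was at 4.73, 5.58 and 5.74 and then at 2.6, 1.85 and 2.6 (difference -3.0 ± 0.33, adjusted p 0.0322), and its other probe also passed (difference -1.83 ± 0.23). Both probes were highest next to the step or 1 fraction before it. Six3, a homeodomain factor of striatal precursors, was at 1.63, 1.96 and 1.66 and then at -0.99, -2.73 and -1.83 (difference -3.60 ± 0.41, adjusted p 0.0365). The antisense transcript next to it, Six3os1, went the same way, at 0.74, 1.06 and 0.53 and then at -2.28, -3.98 and -3.09 (difference -3.89 ± 0.41, adjusted p 0.0272).

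The peptide gene Tac1, the precursor of substance P, was at 4.06, 4.23 and 4.39 and then at 2.08, 1.31 and 1.41. Its difference was -2.62 ± 0.24 (adjusted p 0.0186), and fraction 12, next to the step, was the highest of the 6. In fractions 1-9 Tac1 never went below 3.63, so its values in fractions 13-15 were the lowest of the whole coronal series. Ebf1, a factor of direct-pathway neurons, was at 0.59, 0.96 and 0.32 against -1.84, -1.17 and -1.85 (difference -2.25 ± 0.26, adjusted p 0.0363). Zfp503, a zinc finger factor of striatal precursors, was at 0.23, 0.77 and 0.65 against -1.39, -0.97 and -1.59 (difference -1.87 ± 0.23, adjusted p 0.0414). Rasd2, a small GTPase rich in the striatum, had the smallest called fall of the list, from 1.91, 1.84 and 1.69 to 0.73, 0.44 and 0.61 (difference -1.22 ± 0.15, adjusted p 0.0444). Arpp21, a phosphoprotein of striatal neurons, fell by 2.22 with the probe that represents it (adjusted p 0.0186), but its 3 probes disagreed, and the highest differed by 0.24.

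Receptors that define the striatal output classes were lower in 13-15 without passing the test. Drd2, the dopamine receptor of the indirect pathway, was at -2.42, -2.03 and -2.27 against -3.74, -4.04 and -3.42 (adjusted p 0.0590). Adora2a, the adenosine receptor of the same neurons, was at 1.41, 2.12 and 1.62 against 0.05, 0.05 and -0.87 (adjusted p 0.0776). Drd1, the dopamine receptor of the direct pathway, was at 0.12, 0.61 and 0.25 against -0.36, -1.94 and -3.0 (adjusted p 0.222). The values of Drd1 were closer between fractions 12 and 13 than between 13 and 15, unlike those of Drd2, whose values in 13-15 had no such slope. Ppp1r1b, the dopamine-regulated phosphatase inhibitor, likewise went 4.51, 5.37 and 5.43 and then 4.29, 2.85 and 2.25 (adjusted p 0.191). Penk, the enkephalin precursor, went the other way within the second side, at 4.72, 5.32 and 4.85 and then 2.52, 3.02 and 3.76 (adjusted p 0.0964). The members therefore reached their low level at different fractions after the step.

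Retinoid genes did not move as a group. Of 15 kept, 1 fell (Rxrg) and 0 rose by the probe with the highest mean, and the median difference was 0.11. Without overlap, 3 had lower and 4 had higher sides, where the shares of all genes were 10.1% and 10.0%. Rarb, the retinoic acid receptor whose upstream sequence is given above, was measured by a pair of probes. One was at -0.50, 0.35 and 0.33 and then at -2.03, -2.54 and -1.95 (difference -2.23 ± 0.29, adjusted p 0.0483). The brighter one was at 2.36, 3.25 and 3.58 and then at 0.69, 0.44 and 1.07 (difference -2.33 ± 0.34) and missed the threshold (adjusted p 0.0620). Both put Rarb lower in 13-15 with no overlap, and the brighter one highest in fraction 12. Crabp1, a carrier of retinoic acid, was at 2.42, 2.80 and 2.02 against 0.12, 0.54 and 0.87 (adjusted p 0.0613). Aldh1a2, an enzyme that makes retinoic acid and a marker of the meninges, was at 1.75, 1.76 and 2.02 and then at 2.79, 3.54 and 3.89 (adjusted p 0.102), the opposite direction to Rarb and Rxrg.

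Several of the largest falls belonged to genes of no list. Gm10421 was at -2.73, -1.81 and -2.03 and was well above background in none of fractions 13-15, at least a 4.56-fold fall with an adjusted p of 0.0175, the smallest of all and shared with the unnamed probes A_55_P2329825 and A_55_P2008830. It remained past the threshold under 12 of 14 alternatives. Dio3, which inactivates thyroid hormone, was at -1.99, -1.49 and -1.59 and then at -3.86, -4.96 and -5.42 (difference -3.06 ± 0.39, adjusted p 0.0479). Only 1 of fractions 13-15 had Dio3 well above background, so the size of its fall is uncertain. Gbx2, a homeodomain factor of the thalamus and of cholinergic interneurons, was at -0.42, -1.10 and -1.57 and then at -3.89, -4.47 and -3.58 (difference -2.95 ± 0.35, adjusted p 0.0404). It was the only 1 of 9 thalamic genes kept that fell, and it was highest in fraction 8. Ecel1, an endopeptidase of the neuronal surface, was at 3.91, 3.92 and 3.80 and then at 1.75, 0.61 and 0.96 (difference -2.77 ± 0.29, adjusted p 0.0252). P2ry1, a purinergic receptor, was at 1.5, 1.63 and 0.65 and then at -1.51, -1.12 and -1.32 (difference -2.58 ± 0.28, adjusted p 0.0315). Gdnf, a neurotrophic factor of which the postnatal striatum is a known source, was at -2.70, -2.43 and -2.5 and well above background in none of fractions 13-15, at least 3.57-fold lower (adjusted p 0.0182). Nexn, an actin-binding protein, was at 0.32, 0.54 and -0.15 and then at -2.43, -2.41 and -2.36, the tightest values after the step of any probe that was called (difference -2.64 ± 0.20, adjusted p 0.0182).

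Another set was highest in fraction 10 and slid towards the step. Nek5, a kinase, was at -1.29, -2.41 and -2.93, and 1600029I14Rik at -1.14, -2.0 and -3.21. Neither was well above background in fractions 13-15, which gave falls of at least 4.51-fold (adjusted p 0.0236) and at least 4.81-fold (adjusted p 0.0414). Nek5 had a further probe that differed by -0.87 and did not pass. Ccno, a cyclin needed to form multiple cilia, was at 0.27, -0.51 and -1.07 and then at -2.96, -3.49 and -3.02 (difference -2.72 ± 0.35, adjusted p 0.0477). Ppp1r32 was at 0.55, -0.01 and -0.96 and then at -2.81, -3.14 and -3.14 (difference -2.89 ± 0.37, adjusted p 0.0477). In these 4 genes the first side spread along the fractions as well as across the step. Cfap44 and Ttc25, proteins of the motile cilium, and Ppp1r36 also fell, each well above background in none of fractions 13-15, by at least 1.32-fold, 1.6-fold and 1.75-fold. The list of ependymal genes, which mark the ciliated lining of the ventricles, was lower in 7 of 7 members with a median of -2.29, yet 0 passed the test. Its summed level, the members' linear signals added up in units of each array's 75th percentile, was 9.57 to 26.9 in fractions 10-12 and 4.32 to 6.52 in fractions 13-15. Ccdc153, for example, was at 2.30, 1.35 and -0.46 against -3.50, -3.92 and -2.59 (adjusted p 0.0787). Genes of the choroid plexus, which makes cerebrospinal fluid in the ventricles, were lower in 11 of 14, with summed levels of 44.6 to 233 against 24.7 to 58.9 and 0 calls. Ttr, its main product, was at 7.59, 7.54 and 5.05 and then at 3.39, 2.65 and 3.88 (adjusted p 0.123). The part of ventricular tissue in the falls was not tested.

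The rest of the genes that fell were Frem3, Brs3, Map3k19, BB031773, Pde7b, Strip2, Dct, Col25a1, Dmkn, Krt33b, Dach1, Cd2, Itih3, Plek2, Kctd8, Myb, Slc23a4, Sowaha and Klhl13. Their fitted differences ran from -3.24 for Frem3 to -1.23 for Klhl13. Frem3, Brs3, Map3k19, BB031773, Pde7b, Col25a1, Krt33b, Cd2, Plek2 and Slc23a4 were well above background in none of fractions 13-15. Their falls are therefore bounds, from at least 1.27-fold for Pde7b to at least 3.80-fold for Brs3, with none to give for Krt33b. Frem3 fell by at least 2.12-fold with its dimmer probe, and its other probe differed by -2.41 and did not pass. Dach1, a factor of developing neurons, and Dmkn passed with both of their probes, and Frem3, Map3k19, Pde7b, Strip2, Dct, Col25a1 and Sowaha with 1 of 2 or 3. Wfdc18 had a gap of 2.97, among the 5 largest of the genes that fell, at -0.67, 0.02 and -0.36 against -3.64, -5.97 and -4.07, but it missed the threshold (adjusted p 0.0590). Among 5267 lncRNA probes kept, taken here as those with IDs that start with A_30_, 8 fell (0.152%) and 0 rose. The largest fall was that of A_30_P01027176, which lies forward on chromosome 8 (83210957 to 83219451, mm9), at -1.80, -2.29 and -2.47 and then well above background in none, at least 4.58-fold lower (adjusted p 0.0252). A_30_P01021044 (chromosome 5, 91480533 to 91502237, reverse) and A_30_P01019278 (chromosome 12, 110870903 to 110891628, forward) fell by at least 1.21-fold and 1.26-fold. A_30_P01031422 and A_30_P01025524 fell by 1.91 and 1.81, and the array files give the same interval for both, so they are not independent.

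Of the 43 genes that fell, 26 were highest in fractions 10-12, 13 of them in fraction 11, and 17 in fractions 1-9. Of all genes, 21.7% were highest in fractions 10-12 and 43.9% in fractions 1-9, and the choice of genes that fell from 10-12 to 13-15 bears on this difference. The mean of 26 genes in 13-15 was below each of their values in fractions 1-9. In the other mice, 23 of the 43 were highest in horizontal fractions 6-8 and 20 in horizontal fractions 4-5, with 0 in 1-3, whereas of all 14941 genes 31.9% were highest in horizontal fractions 6-8, 2611 genes in 4-5 and 50.7% in 1-3. Along the sagittal axis 27 of the 43 were highest in fractions 4-8 (34.8% of all genes), 10 in fractions 2-3 and 5 in fractions 9-10. Both Rxrg probes were highest in sagittal fraction 2 and horizontal fraction 6, while Nek5 and 1600029I14Rik were highest in sagittal fraction 6 and horizontal fraction 5. These are levels in single other mice and were not tested.

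The largest difference in either direction was a rise. Ms4a15, a membrane-spanning 4-domain gene, was at -7.02, -7.01 and -6.56 in fractions 10, 11 and 12, well above background in none, and then at 0.01, 3.07 and 3.76 in fractions 13, 14 and 15. The rise was at least 122-fold (fitted difference 9.15 ± 0.90, adjusted p 0.0236). It was well above background in none of fractions 1-9 either. Tfap2e, an AP-2 transcription factor of olfactory bulb output neurons, was at -6.31, -6.55 and -6.44 and then at -0.63, 1.65 and 2.22, at least 53.1-fold higher (adjusted p 0.0186). Tbx21, a T-box factor of mitral and tufted cells, was at -4.06, -4.25 and -3.74 and then at 0.37, 3.04 and 3.46 (difference 6.31 ± 0.76, a 79.4-fold difference, adjusted p 0.0414). In each of the 3 genes fraction 13 held the lowest value after the step and fraction 15 the highest, and all lay above fractions 1-9.

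The other genes that rose were smaller in size. Lsmem1, a membrane protein, was at -6.66, -6.89 and -6.39 and then at -3.60, -2.04 and -2.13, at least 4.18-fold higher (adjusted p 0.0252). Slc22a2, a transporter of organic cations, was at -2.63, -2.85 and -2.38 and then at -0.41, 0.46 and 0.49 (difference 2.80 ± 0.28, adjusted p 0.0236). The transcript 1700001K23Rik was at -5.36, -5.25 and -5.32 and then at -3.20, -2.75 and -2.13, at least 3.88-fold higher (adjusted p 0.0252), but it was highest in fraction 1 of the coronal series. Fpr1, a receptor of formylated peptides, was at -5.48, -5.33 and -6.05 and then at -4.05, -3.60 and -3.69, at least 1.82-fold higher (adjusted p 0.0477). Colec12, a scavenger receptor, was at -2.54, -2.76 and -2.56 and then at -1.52, -1.29 and -1.35 (difference 1.23 ± 0.15, adjusted p 0.0414), and it too was highest in fraction 1. The probes A_51_P431543 and A_55_P2032940, which matched no symbol, rose by at least 41.5-fold and 2.28-fold.

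**Figure D3:**
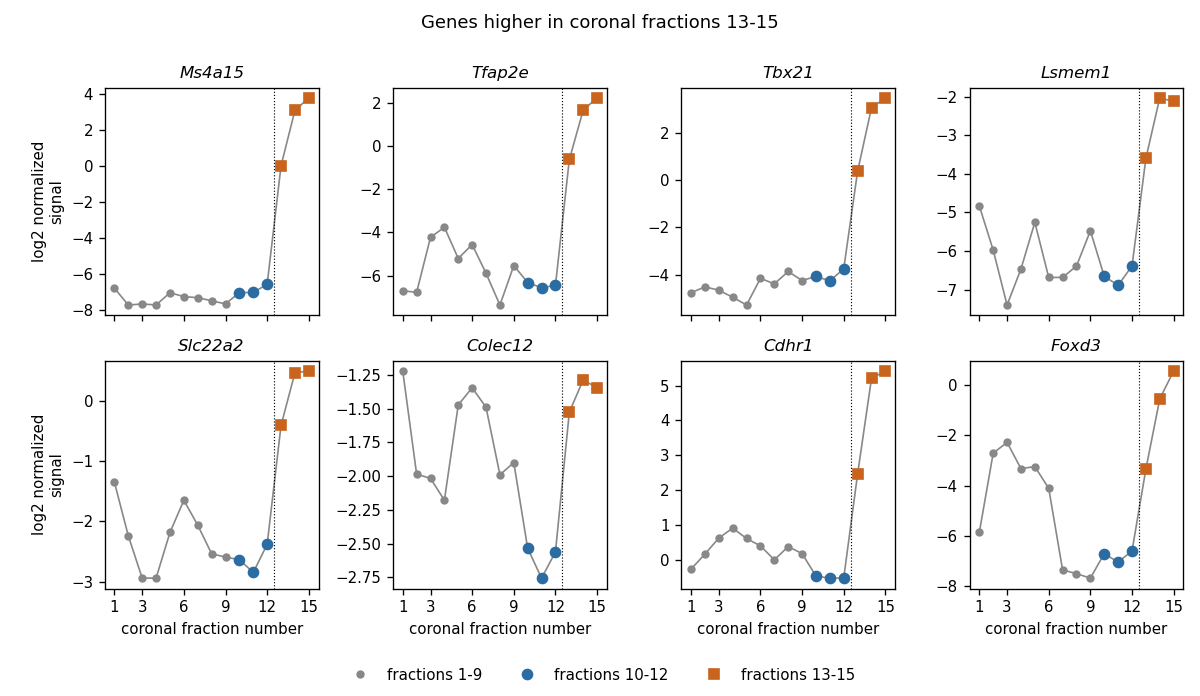
Log2 normalized signal (y axis) of 8 genes over the 15 coronal fractions (x axis), drawn as for the genes that fell; Cdhr1 and Foxd3 had large gaps but did not pass the test. Within fractions 13-15 the value was highest in fraction 15 in each gene but Lsmem1 and Colec12, which were highest in fraction 14 within the side, and Colec12 reached a similar level in fraction 1.

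Mitral and tufted cell genes were higher as a list, with 1 call. Of 12 kept, 1 rose (Tbx21) and 0 fell, 8 had higher sides without overlap and none had lower ones, with a median difference of 1.49, where 10.0% of all genes had higher sides without overlap. Cdhr1, a cadherin-related protein of these cells, was at -0.47, -0.53 and -0.53 and then at 2.46, 5.21 and 5.42. The gap of 2.93 was among the 5 largest of the genes that rose, but the spread within the second side kept it from passing (adjusted p 0.0698). Eomes, a T-box factor of the same cells, was at 0.45, -0.41 and -0.82 against 1.42, 3.78 and 3.97 (adjusted p 0.125). Slc17a7, the vesicular glutamate transporter, was at -0.19, -0.25 and 0.03 against 0.72, 1.84 and 2.18 (adjusted p 0.126). Nmb, a peptide of tufted cells, was at 1.62, 1.28 and 0.94 against 2.23, 4.88 and 5.67 (adjusted p 0.196). By their means 10 of the 12 were higher and 2 lower. Cck, a peptide that cortical neurons make too, was 1 of those 2, at 6.27, 5.83 and 6.00 against 6.19, 5.13 and 3.98 (adjusted p 0.562).

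Interneuron genes of the bulb were split. Of 28 kept, 0 passed, 7 had higher and 4 had lower sides without overlap, and the median difference was 0.30. The shares without overlap over all genes were 10.0% higher and 10.1% lower. Scgn, the calcium-binding protein secretagogin, had the largest positive difference of the list, from well above background in none (-5.77, -6.11 and -6.61) to -3.47, -2.33 and -1.54, at least 4.59-fold, and missed the threshold (adjusted p 0.0505). Th, the rate-limiting enzyme of dopamine synthesis, was at 1.52, 1.45 and 1.54 against 2.51, 4.18 and 4.69 (adjusted p 0.142). Calb1, another calcium-binding protein, was at -2.98, -3.23 and -4.01 and well above background in none of fractions 13-15 (adjusted p 0.158). The Dlx genes, homeodomain factors of GABAergic neurons, overlapped between the sides except for Dlx6, which was lower by a gap of 0.03. Markers of dividing cells did not separate the sides: 0 of 18 cell cycle genes had sides without overlap.

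Ensheathing glia, the glia of the olfactory nerve, were represented by 9 genes, of which 0 passed and 4 had higher sides without overlap. Among all genes 10.0% had higher and 10.1% had lower sides without overlap. Foxd3, a forkhead factor of neural crest glia, was at -6.71, -7.05 and -6.60, well above background in none, and then at -3.34, -0.54 and 0.57, at least 11.7-fold (adjusted p 0.0787). Mbp, the myelin basic protein, was at 2.88, 2.78 and 2.68 against 2.42, 2.30 and 2.19 (adjusted p 0.234). It belongs to the oligodendrocyte list and is not among these 9 genes. Omp and S100a5, genes of the olfactory sensory neuron, were highest in fraction 15 of the 6. Omp, the olfactory marker protein, was at -2.64, -2.85 and -2.75 and then at -2.46, 0.50 and 2.17 (adjusted p 0.338). S100a5 was at -3.80, -3.36 and -3.56 and then at -2.45, 1.52 and 3.31 (adjusted p 0.234). Of 11 such genes kept, 2 were higher and 3 lower without overlap, and Cnga2, which defines the sensory cell, was at -2.35, -2.20 and -2.18 against -1.94, -2.31 and -2.78.

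Cortical projection neuron genes did not mark the step. Of 30 kept, 0 passed, 5 had higher and 5 had lower sides without overlap, and the median difference was -0.21. Over all genes 10.0% had higher and 10.1% lower sides without overlap. Neurod6, a factor of cortical excitatory neurons, was at 3.47, 3.38 and 3.71 and then at 4.48, 3.88 and 1.81 (adjusted p 0.972). It was highest in fraction 13 and lowest in fraction 15 of the 6, so that the sides overlapped. Without fraction 15 the median of the list was 0.10. The values of Tbr1, which both cortical and mitral neurons make, were 4.30, 4.20 and 4.88 against 5.42, 4.96 and 4.06 (adjusted p 0.805). Foxp2, a factor of cortex, striatum and thalamus, was at -0.82, -0.47 and -0.43 against -1.6, -1.67 and -1.53 (adjusted p 0.0776). Abhd4 was at 5.28, 5.39 and 5.94 against 5.71, 6.52 and 7.19, and the lncRNA probe A_30_P01017714 at -0.01, 0.00 and 0.33 against 0.38, 0.89 and 1.51, and neither passed (adjusted p 0.395 and 0.314). Hypothalamic and preoptic genes were lower in 12 of 16 (median -0.67) with 0 calls, and Oxt, the oxytocin gene, stood out in fraction 10 alone, at 1.62 against -3.19 to -1.77 in the other 5 fractions.

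**Figure D4:**
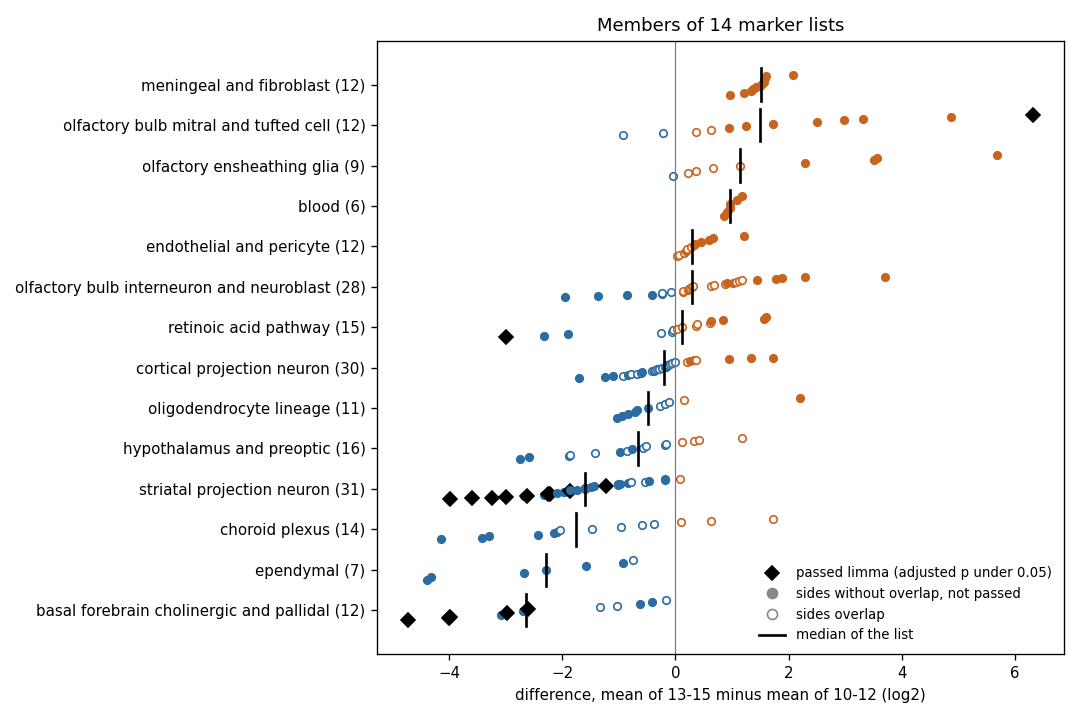
Difference between the sides (x axis, mean of fractions 13-15 minus mean of fractions 10-12, log2) for the members of 14 marker lists, the number of genes kept in brackets. Black diamonds passed the limma test, filled circles had sides without overlap, open circles had sides that overlapped, and the bar is the median of the list; the bars run from -2.65 for the basal forebrain genes (-0.84 for the 6 well above background in every fraction) to 1.51 for the meningeal genes.

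Markers of tissues around and between the neurons moved with the rising side. All 12 meningeal and fibroblast genes had higher sides without overlap, against 10.0% of all genes, with a median difference of 1.51 and 0 calls. Their summed level was 275 to 299 in fractions 10-12 and 451 to 820 in fractions 13-15. Dcn, a matrix proteoglycan, was at 3.35, 3.05 and 3.29 and then at 4.23, 5.36 and 6.34 (adjusted p 0.152). The 6 blood genes kept were all higher without overlap (median 0.97, summed level 42.3 to 80.4 against 91.7 to 158, 0 calls). Endothelial and pericyte genes were higher in 12 of 12, by a median of 0.30 (summed level 51.6 to 66.6 against 77.0 to 80.0). Colec12, which belongs to none of the lists, was highest in coronal fraction 1. The part of meninges and vessels in the rises was not tested. Of 6 bone and cartilage genes kept, 5 were higher in 13-15, 3 of them without overlap, with a median of 1.33 and 0 calls, and their summed level was 1.48 to 1.64 against 1.19 to 4.34. Acan, a cartilage proteoglycan, was at -2.69, -2.93 and -3.01 against -2.60, -1.03 and -1.11 (adjusted p 0.264). Sp7, a factor of bone-forming cells, was well above background in 0 of fractions 10-12 and 2 of fractions 13-15. Of 6 muscle genes kept, 5 were well above background in all 6 fractions, 3 were higher and 3 lower, none without overlap, and Ckm, Actc1, Mylpf and Myog were not kept. The part of bone and cartilage in the rises was not tested.

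In each of the 8 genes that rose, the change from fraction 12 to 13 was larger than the range within fractions 13-15. It was 6.57 against 3.75 for Ms4a15 and 1.04 against 0.24 for Colec12. A call needs a difference that is large against the spread within the sides, so the choice of these genes bears on this. Among genes with large gaps that were not called, Foxd3 had 3.27 against 3.90 and Cdhr1 had 2.99 against 2.96. Of the 38 genes with a gap of at least 1 that were higher in 13-15 (0.254%), 36 were highest in 13-15 of all coronal fractions. Of these, 32 were highest in fraction 15 and 0 in fraction 13. Of all 14941 genes, 34.4% were highest in 13-15, 2978 genes in fraction 15 and 1419 in fraction 13. The choice of genes that were higher in 13-15 bears on this difference. Of the 38, 37 were higher in fraction 15 than in fraction 13. Of all 14941 genes, 10458 had fraction 15 beyond fraction 13 in the direction of their own difference, rises and falls together. The median change of the 38 from fraction 12 to 13 was 1.72. Their values ranged over a median of 2.46 within fractions 13-15 but 0.43 within fractions 10-12. The 120 genes with a gap of at least 1 that were lower in 13-15 (0.803%) had a median range of 0.76 within 13-15 and 1.05 within 10-12, and their median change from fraction 12 to 13 was 1.99. Of these 120, 55 were well above background in none of fractions 13-15, and 16 of the 38 in none of fractions 10-12. A fit with a side term beside a straight gradient over the 6 fractions asked for a jump beyond a line. It passed for 0 of 30786 probes in limma (1256 at an unadjusted p under 0.05, 4.08%). Lhx8 had a side term of -3.99 and Ms4a15 of 5.99 in that fit, with adjusted p of 0.989 for both, which with 3 residual degrees of freedom says little.

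The step differed from the others of the coronal series in what was called, and the difference in counts was not tested. The same fit gave 0 calls in each direction for fractions 1-3 against 4-6, 4-6 against 7-9 and 7-9 against 10-12. At an unadjusted p under 0.05, however, those steps had more probes, 23.6%, 18.9% and 27.3% of those tested, than the 12.1% across fractions 12 and 13. A gap of at least 1 was reached by 118, 83 and 64 probes that were lower in the higher numbers at those steps and by 180 here, and by 62, 29 and 23 that were higher and 51 here. The comparison of 7-9 with 10-12 shares fractions 10-12 with this one.

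**Figure D5:**
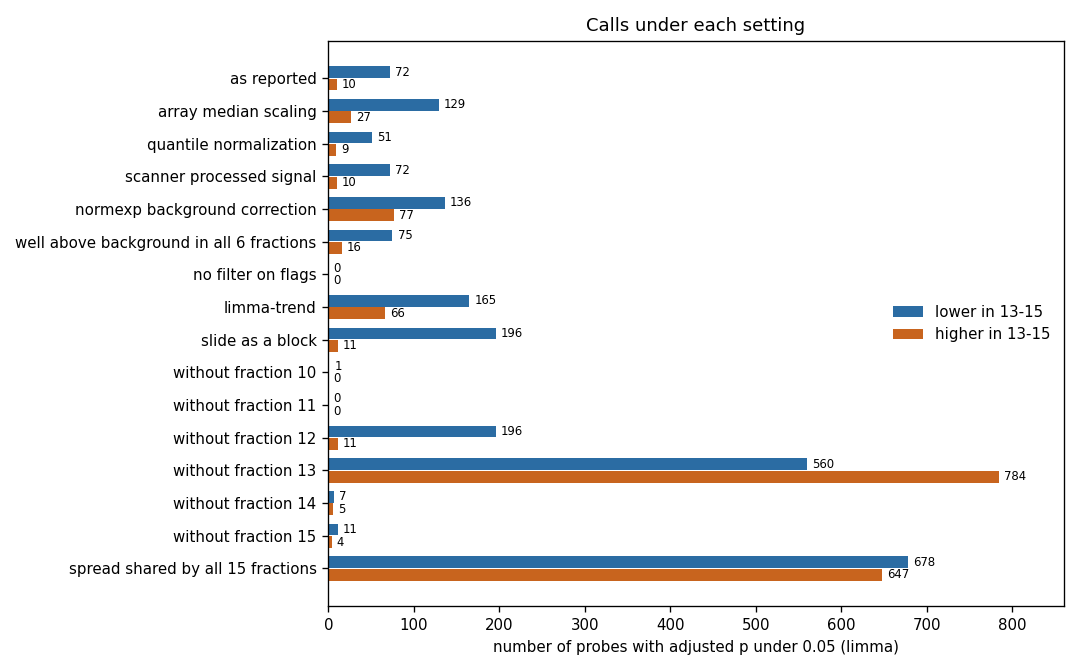
Number of probes (x axis) with an adjusted p under 0.05 that were lower (blue) or higher (orange) in fractions 13-15, under each setting (y axis). The counts run from 0 and 0 without fraction 11 to 560 and 784 without fraction 13, and the reported setting gave 72 and 10.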

How the data were processed

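Total RNA of each fraction was labelled with Cy3 and hybridised to 1 Agilent SurePrint G3 mouse array. The authors scanned the arrays and extracted signals in Agilent Feature Extraction 10.10.1.1. The authors deposited, for each array, intensity values of each spot (median signal, local background and a background-subtracted processed signal) with flags, and a table of log2 values of 43199 probes. Of the deposited log2 values, 99.9% lay within 0.02 of the scanner's log2 processed signal less 1 constant per array, which was within 0.0122 of its 75th percentile. The column medians of the 6 arrays lay between -2.41 and -2.26.

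The groups were taken from the titles: coronal fractions 10-12 and 13-15. Probes flagged well above background in at least 2 of the 6 arrays were fitted with limma 3.58.1 in R 4.3.3 (lmFit, eBayes, two-sided, Benjamini-Hochberg over all probes kept, threshold 0.05), on the log2 table. The fit was tested on simulated data. Symbols came from accessions in the files through RefSeq (GRCm38.p6): 26586 of 55681 probes matched 1 gene. The lncRNA intervals were read from the probe names of the scanner files (mm9). A gene is represented by its kept probe with the highest mean. A level of one probe was not set against that of another, and with arrays the number of fractions limits the precision.

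Named were the 15 largest falls and rises among called genes, the 5 largest gaps and the 3 largest lncRNA changes each way, the members of 30 marker lists, and genes the paper names. Other called genes were added after their values were seen. Sox14 was not kept, and no probe matched the symbol AI606473, which the paper names. The members, rule and lists were chosen with earlier results of these data known. No set was tested. Some members of the lists are not reported here. Alternatives were other scalings (array median, quantile), the scanner's signals, a normexp correction, other flag filters, limma-trend, slide as a block, a spread shared by all 15 fractions, and leaving out each fraction. Figures were drawn with matplotlib 3.10.9 and tables made with Python 3.11.15, numpy 2.4.6 and pandas 2.3.3.

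Of the 30 lists, those not described as lists above, save the neuropeptides, gave 0 calls, as did skeletal muscle and bone and cartilage. Their median differences were -0.20 (neurogenic progenitors, 13 genes kept), 0.30 (astrocytes and radial glia, 13), -0.48 (oligodendrocyte lineage, 11), 0.03 (microglia, 11), -0.15 (cortical area patterning, 15), -0.09 (Zic family, 5), -0.13 (dopamine synthesis and receptors, 12), -0.15 (migration guidance, 21), -0.28 (immediate early genes, 10), -0.03 (skeletal muscle, 6), 1.33 (bone and cartilage, 6), -0.86 (nasal epithelium, 5) and 0.08 (reference genes, 10). The neuropeptides had 1 call, Tac1, and a median of -0.56 (18 kept).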

Additional observations from a re-analysis of the deposited data

How the results depend on the processing

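The counts of probes lower and higher in fractions 13-15 were 129 and 27 with the array median, 136 and 77 with normexp (run on the median signal, since the files hold no mean signal), 165 and 66 with limma-trend and 678 and 647 with a spread shared by all 15 fractions. With slide as a block they were 196 and 11, the same as without fraction 12, which is alone on its slide. Without a flag filter both were 0 (4071 probes at an unadjusted p under 0.05, smallest adjusted p 0.0590). Requiring all 6 fractions well above background gave 16 higher. Gaps of at least 1 were found in 38 lower and 14 higher probes with normexp, and in 65 and 27 with all 6 fractions required, where fewer probes were tested. Leaving out 1 fraction gave 0 to 560 lower and 0 to 784 higher probes. Sides without overlap then ranged from 3274 to 6351 lower and from 2932 to 5189 higher probes, and gaps of at least 1 from 189 to 429 lower and from 62 to 525 higher. No paired analysis was possible because the sides share no fraction number. Of the 88 named or called probes, 0 values reversed, 744 kept their side of the threshold, 510 lost it and 20 gained it. For the called probes, leaving out a fraction could not reverse the difference, since their sides did not overlap. Limma-trend and the spread shared by all 15 fractions leave each difference as it was. Of 450 list medians 18 moved beyond the spread between fractions. The basal forebrain median was -0.78 with normexp and -0.84 with all 6 fractions required. The cause of these moves was not tested.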
